A study of Neurospora crassa OR74A with 13 samples.

Results

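Neurospora crassa, a filamentous fungus that lives on burnt plant material, was compared on 1 sugar in 2 strains. A mutant called TBGK, which lacks 3 beta-glucosidase genes (NCU04952, NCU00130 and NCU08755, or gh3-4, gh1-1 and gh3-3), was set against the wild-type reference strain FGSC 2489 (WT). Both libraries came from mycelia pregrown for 16 h in sucrose medium, washed and held for 4 h in medium with cellobiose as the carbon source. The comparison rests on 2 of the 13 libraries of the series, 1 per strain, and on 9733 genes measured in each. The other libraries were TBGK on Avicel (crystalline cellulose) and on sucrose, with 1 library each, and WT on Avicel, on sucrose and on no carbon, with 3 libraries each. They are given here beside the cellobiose values. The labels do not say whether TBGK is 1 clone or more.

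Cellobiose is a disaccharide of glucose and the main product of enzymatic cellulose digestion. Beta-glucosidases split it into glucose, outside the cell or, after uptake by cellodextrin transporters, inside it. In N. crassa the transcription factors CLR-1 and CLR-2 are required for the cellulase genes, XLR-1 is required for the xylanase genes, and CRE-1 represses many genes for plant polysaccharide use when glucose is plentiful. Comparing the strains on cellobiose addresses what the fungus transcribes when cellobiose can be taken up while the enzymes that split it are reduced.

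Levels are FPKM, fragments per kilobase of transcript per unit of library size, as deposited. The authors' divisor is not known: FPKM times gene length summed to 8.99 times in TBGK and 7.94 times in WT what scaling to all fragments on these genes would give, so small differences depend on the scaling. A strain difference is TBGK minus WT in log2(FPKM + 1), and "2-fold" refers to that scale, which understates the change of genes with low values. With 1 library per strain on cellobiose no difference has replicates of its own, and none is called by a test here; a limma fit that borrows its spread from the WT triplicates is given as an alternative in the closing section. The sequencing depth of both libraries is unknown. Only the 8679 genes that reached an FPKM of 1 in TBGK or in WT were kept. In TBGK 1086 genes were listed at 0, against 1335 in WT, and the median FPKM was 79.2 in TBGK and 84.2 in WT.

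The deleted genes were read first as a check of the labels. The gene gh3-3 (NCU08755, supercont10.3, 5254975 to 5258174) had 3.36 FPKM in TBGK against 3254 in WT. The gene gh1-1 (NCU00130, supercont10.3, 2730966 to 2732948) had 7.47 FPKM in TBGK against 2632 in WT. Both were thus near 0 in TBGK on a sugar on which WT transcribed them. The third, gh3-4 (NCU04952, supercont10.4, 846341 to 849048), had an FPKM of 1.66 in TBGK and 1.36 in WT, so it could not be checked on cellobiose. On Avicel gh3-4 had an FPKM of 3.23 in TBGK, against 1827, 189 and 224 in the 3 WT libraries, and there the strains did not overlap.

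The strains differed widely on cellobiose. In TBGK 1955 genes (22.5% of those kept) were at least 2-fold higher than in WT and 1386 (16.0%) were at least 2-fold lower. These shares are the background for the counts of every gene list below. Large differences lay mostly in 1 direction: 783 genes were at least 4-fold higher and 286 at least 4-fold lower. A difference of at least 5 on the log2 scale was seen for 89 higher genes and 7 lower ones. The median difference of all kept genes was 0.03, with quartiles at -0.67 and 0.88. The balance depends on the scaling: when each library was rescaled to a sum of 1000000, 1283 genes were higher and 1612 lower, and after quantile normalization 1541 were higher and 1654 lower, with the median of all genes at -0.15 and -0.12.

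**Figure D1:**
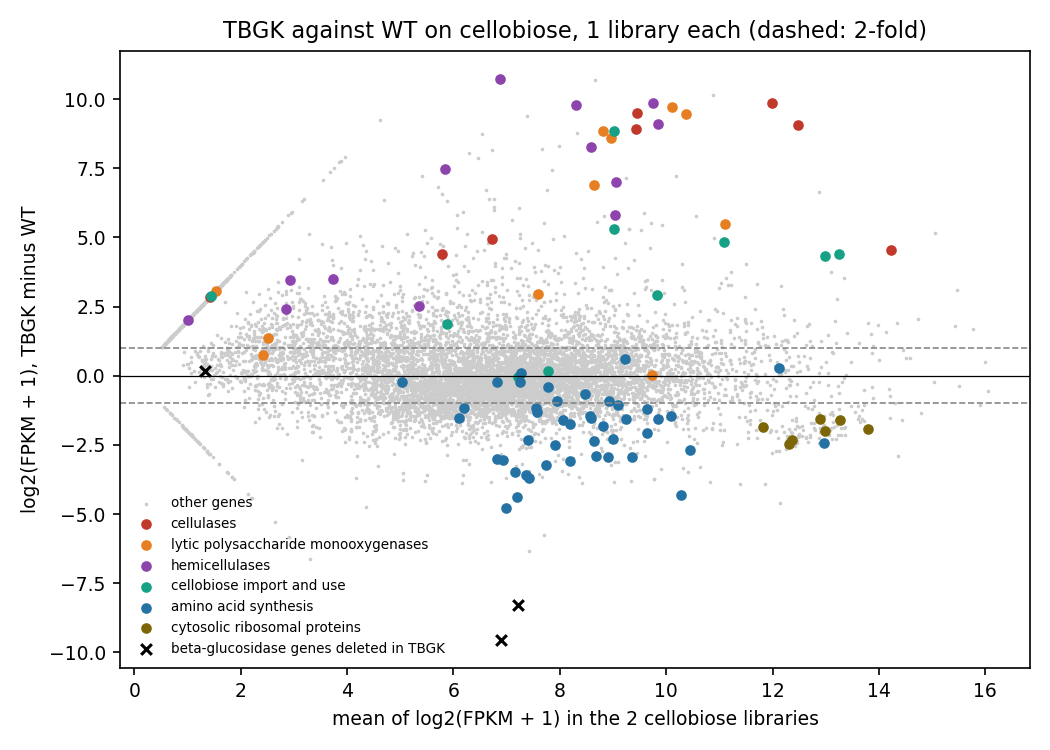
Strain difference on cellobiose (y axis, TBGK minus WT in log2(FPKM + 1)) against the mean of both libraries (x axis) for 8679 genes, 1 point per gene, with 7 gene lists in colour. Genes for plant cell wall digestion lie up to 10.73 above 0, genes of amino acid synthesis and ribosomal proteins lie mostly below it, and the deleted genes gh3-3 and gh1-1 lie lowest.

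The only spread between replicates in the series is that of the WT triplicates on other carbon sources. In the 9 pairs of WT libraries of 1 condition, between 2.26% and 25.7% of kept genes were at least 2-fold apart, with a median of 12.8%. The first replicates of WT on Avicel and on sucrose stood apart: the Avicel one differed from the other two by 24.5% and 25.7% of genes, against 2.26% between those, and the sucrose one by 23.1% and 22.2%, against 4.50%. Without these libraries no replicate pair exceeded 12.8%. The strains differed by that much at 38.5% of genes on cellobiose, at 17.9% to 20.7% on sucrose and at 19.2% to 33.7% on Avicel, where TBGK was paired with each WT library. The share on cellobiose was thus above that of every replicate pair and every other strain pair. On sucrose and Avicel the WT libraries are marked as deposited earlier than the TBGK ones, so strain and deposit cannot be told apart there. Of the genes at least 2-fold apart on cellobiose, 1277 of the higher ones and 1040 of the lower ones, together 26.7% of genes kept, differed by more than the largest range between replicates in any WT triplicate group.

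**Figure D2:**
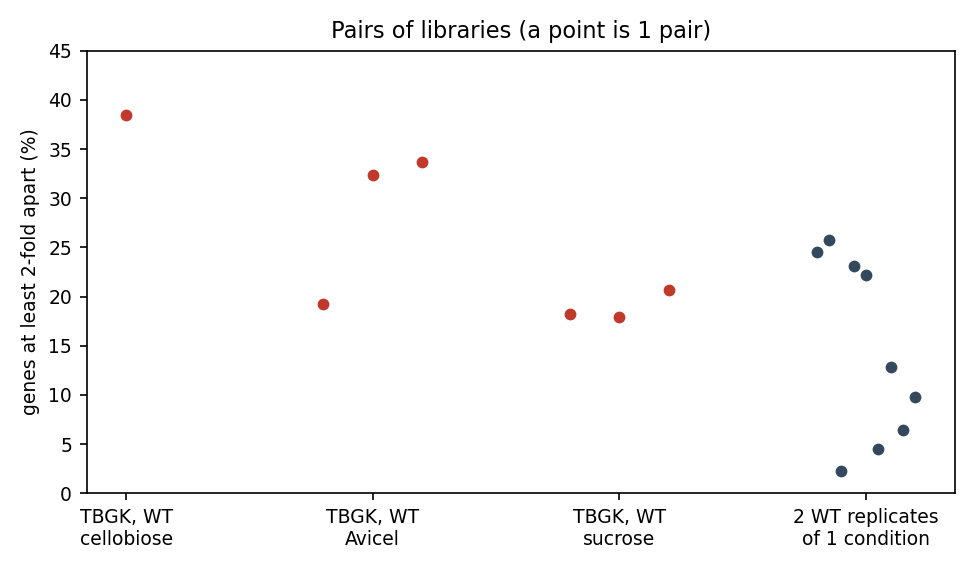
Share of kept genes at least 2-fold apart (y axis, percent) in pairs of libraries: TBGK with WT on cellobiose, TBGK with each WT library on Avicel and on sucrose, and pairs of WT replicates. The single cellobiose pair, at 38.5%, lies above all others, and the replicate pairs range from 2.26% to 25.7%.

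Cellulase genes were among those with the widest gaps. All 8 listed members were at least 2-fold higher in TBGK (background 22.5%), all 8 by more than the largest range between WT replicates, with a median difference of 6.94. Their summed FPKM was 382862 in TBGK and 4451 in WT, which is 6.64% of all FPKM in the TBGK library and 0.0887% in the WT library. The cellobiohydrolases, which release cellobiose from the ends of cellulose chains, stood near the top of the TBGK transcriptome. The gene cbh-1 had an FPKM of 130865 in TBGK and 246 in WT, a 532-fold difference, and was the third most abundant transcript in TBGK. The other main cellobiohydrolase gene, gh6-2, had 124112 in TBGK and 131 in WT, a 945-fold difference.

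The same genes can be placed among the other libraries. On Avicel cbh-1 had an FPKM of 151613 in TBGK and 186620, 86756 and 104215 in WT, and on sucrose it had 32.4 in TBGK and 11.2, 70.2 and 16.7 in WT. The value in TBGK on cellobiose lay inside the range of WT on Avicel, while WT on cellobiose was above the WT libraries on sucrose and on no carbon, the last of which had 116, 103 and 123 for cbh-1. On sucrose TBGK lay inside the WT range.

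Cellulase genes differed in how silent they were in WT. For gh6-3, which encodes a member of the family of gh6-2, FPKM was 93034 in TBGK and 3989 in WT. The WT value was low beside TBGK but well above the WT values on sucrose, 29.8, 50.1 and 36.5, and on no carbon, 96.3, 94.99 and 107. The endoglucanase genes gh5-1 and gh7-1, whose enzymes cut within cellulose chains, had FPKM of 18848 and 15157 in TBGK, against 25.3 and 30.2 in WT. The smallest difference was that of gh7-4, with 6.14 in TBGK and a value of 0 listed in WT.

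Lytic polysaccharide monooxygenases cut crystalline cellulose by oxidation and are named gh61 here. Of 11 genes, 9 were at least 2-fold higher in TBGK, 8 of them by more than the range between WT replicates, and none was lower; the median difference was 5.48. The highest were gh61-4, with an FPKM of 31766 in TBGK and 37.2 in WT, and gh61-5, with 35258 in TBGK and 49.01 in WT. Not every member followed. For gh61-9 FPKM was 856 in TBGK and 834 in WT, the highest WT level in the family on cellobiose. For gh61-11 it was 5.91 in TBGK and 3.15 in WT.

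Genes for hemicellulose digestion were higher in TBGK as well, although the medium held cellobiose and no hemicellulose. All 13 listed members were at least 2-fold higher in TBGK, 11 by more than the range between WT replicates, with a median difference of 6.99. When the libraries were rescaled to a sum of 1000000, 12 were at least 2-fold higher. The genes NCU08412 and NCU00972, planned for this list, are not among its members and were not counted. Like the other lists, it was chosen with earlier results of these data known. The xylanase genes gh10-1 and gh11-2 had FPKM of 9388 and 26528 in TBGK, against 9.57 and 27.2 in WT. Both are among the 12 largest differences of the whole comparison. The unnamed gene NCU04870 on this list had the largest difference of all genes with an FPKM of at least 10, with 4849.7 in TBGK and 1.85 in WT. Lower levels were seen for gh10-4, which had 3.03 in TBGK and was listed at 0 in WT.

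Of 5 genes for pectin digestion, 4 were at least 2-fold higher (background 22.5%), 3 of them by more than the range between WT replicates. The remaining 1 was lower (background 16.0%), also past that range. The median difference was 4.79. The polygalacturonase genes of this list went opposite ways: gh28-2 had an FPKM of 898 in TBGK and 24.8 in WT, and gh28-1 had 21.6 in TBGK and 61.7 in WT.

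Import and use of cellobiose made up the next list. Of its 10 genes 8 were at least 2-fold higher in TBGK, all 8 by more than the range between WT replicates, and none was lower. The cellodextrin transporter genes were already well expressed in WT: cdt-1 had an FPKM of 36108 in TBGK and 1804 in WT, and cdt-2 had 44948 in TBGK and 2126 in WT. Both WT values exceeded those of all WT libraries on sucrose and no carbon, the highest of which were 733 for cdt-1 and 515 for cdt-2. Cellobiose dehydrogenase, which oxidises cellobiose and can pass the electrons to the monooxygenases, was all but silent in WT. Its gene cdh-1 had 11099 in TBGK and 23.2 in WT.

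The other gh3 family genes on this list, related to deleted gh3-3 and gh3-4, were not all higher. For gh3-6 FPKM was 3249.9 in TBGK and 81.5 in WT, a 39.9-fold difference, and the TBGK value was above the WT range on Avicel, 984, 740.1 and 1023. For gh3-1 it was 112 in TBGK and 30.1 in WT. The genes gh3-5 and gh3-2 had 234 and 144 in TBGK, against 206 and 149 in WT, within 2-fold.

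Of 6 regulatory genes 4 were at least 2-fold higher (background 22.5%), 3 of them by more than the range between WT replicates, and 1 was lower (background 16.0%). The cellulase regulator clr-2 had an FPKM of 936 in TBGK and 10.2 in WT, a 92.2-fold difference. The WT value on cellobiose lay inside the WT range on no carbon, 9.18, 19.7 and 6.63, and the TBGK value lay somewhat below WT on Avicel, 1521, 1122 and 1289.6. Its partner clr-1 differed far less, with 346 in TBGK and 156 in WT. The xylanase regulator xlr-1 had 1193 in TBGK and 193 in WT.

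The carbon catabolite repressor gene cre-1 went the other way, with an FPKM of 450.4 in TBGK and 1712 in WT. The WT value on cellobiose was the highest of the 13 libraries, since cre-1 had 566, 551 and 649.7 in WT on sucrose and 699.5, 113 and 139.9 in WT on Avicel. The difference, -1.92, was smaller than the largest range of cre-1 between WT replicates, 2.62. The genes col-26 and vib-1, which also act on the response to carbon sources, had 1133 and 790.2 in TBGK, against 473 and 659 in WT. For col-26 the range between replicates, 1.87, exceeded the difference, 1.26.

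**Figure D3:**
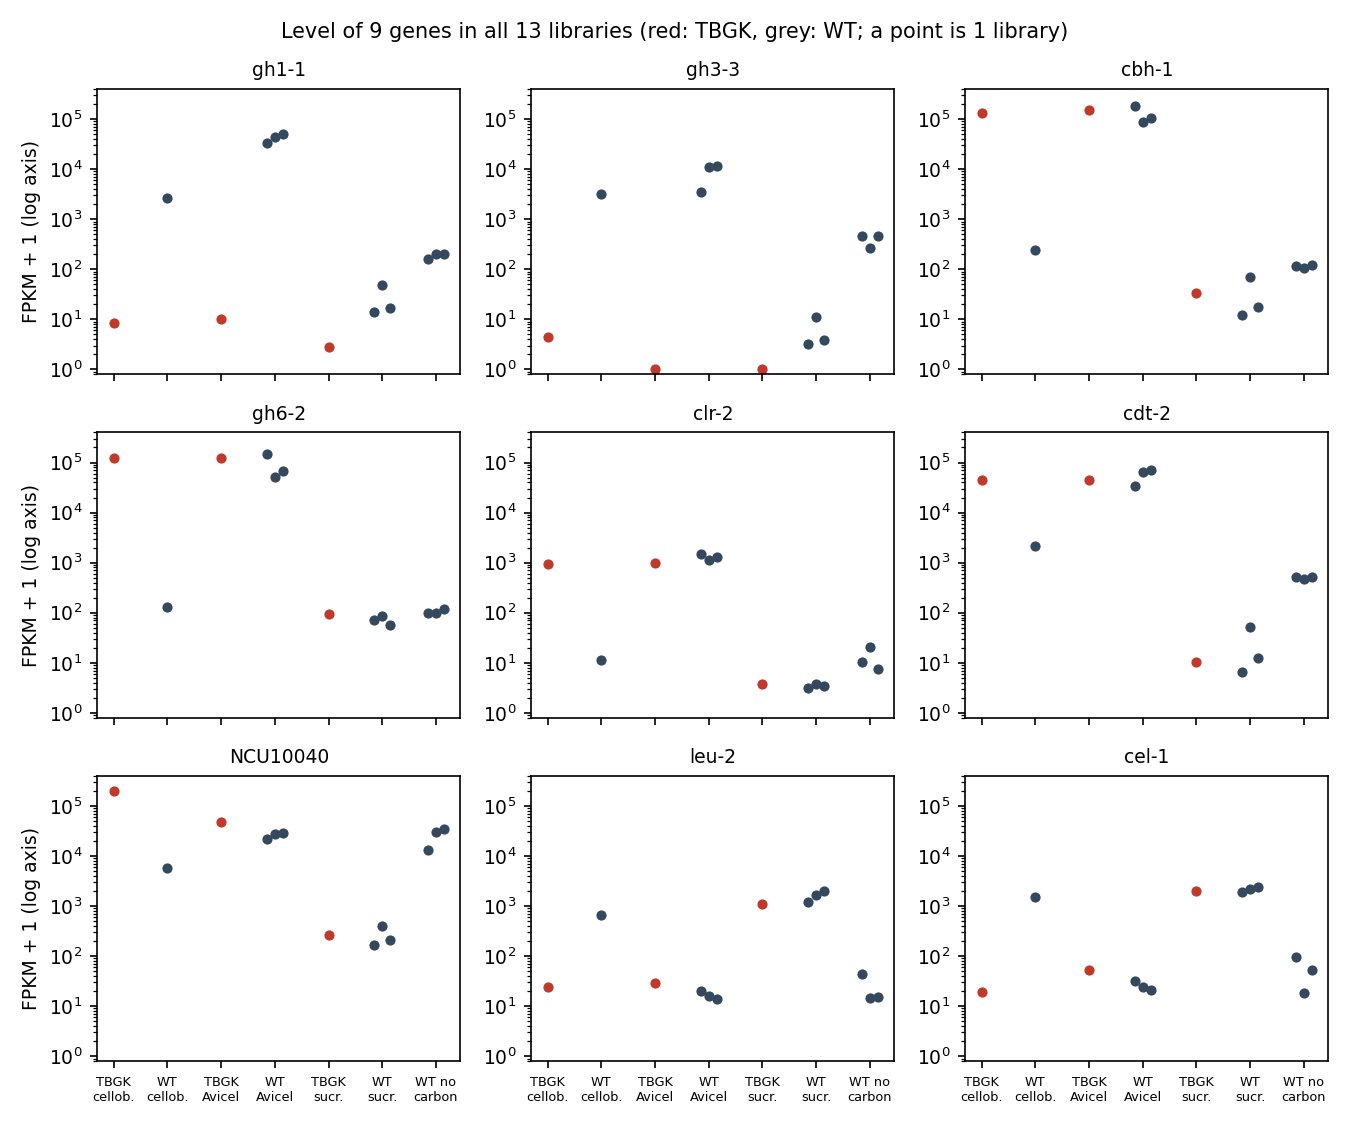
FPKM + 1 (log axis) of 9 genes in all 13 libraries, 1 point per library, TBGK in red and WT in grey, by carbon source. On cellobiose TBGK lies with the Avicel libraries for cbh-1, gh6-2, clr-2 and cdt-2, while leu-2 and cel-1 are at 23.1 and 18.1 in TBGK and at 666 and 1528 in WT.

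Chaperones of the endoplasmic reticulum fold secreted proteins. All 3 listed genes were at least 2-fold higher in TBGK. For grp78, the main chaperone of this compartment, FPKM was 6345 in TBGK and 2892 in WT, and all WT libraries on Avicel were higher than both, at 15979, 11826 and 13257. Only 1 of the 3 genes stayed past 2-fold when the libraries were rescaled to a sum of 1000000.

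Genes were next grouped by how WT responds to its carbon source, using the 9 WT triplicate libraries, none of which enters the cellobiose comparison. These sets were defined after the data were seen, with limma (Benjamini-Hochberg adjusted p under 0.05 and at least 2-fold). By that rule WT called 3.33% of 8759 genes higher and 1.28% lower on Avicel than on no carbon, 28.0% higher and 17.9% lower on Avicel than on sucrose, and 33.5% higher and 17.6% lower on no carbon than on sucrose. Of 212 kept genes higher on Avicel than on both no carbon and sucrose, 165 (77.8%) were at least 2-fold higher in TBGK on cellobiose and 4 (1.89%) were lower. Their median FPKM was 406 in TBGK and 49.4 in WT on cellobiose, beside 771 in WT on Avicel and 16.8 in WT on sucrose. The 4 exceptions that were lower in TBGK were the deleted genes gh1-1 and gh3-3, and NCU02061 and NCU09904.

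The split was not confined to the Avicel set. Of 2010 kept genes that WT expressed more highly on both Avicel and no carbon than on sucrose, with no call between Avicel and no carbon, 1145 (57.0%) were at least 2-fold higher in TBGK and 28 (1.39%) were lower. Their median FPKM was 80.7 in TBGK and 32.2 in WT on cellobiose, and 13.6 in WT on sucrose. Of 1380 kept genes lower on both Avicel and no carbon than on sucrose, 800 (58.0%) were at least 2-fold lower in TBGK and 4 (0.290%) were higher. Their median FPKM was 127 in TBGK and 274 in WT on cellobiose, and 547 in WT on sucrose. When the sets were defined without the first Avicel and sucrose replicates, the shares were 74.6% higher of 256, 54.4% higher of 2128 and 53.9% lower of 1502. In each set the median of WT on cellobiose lay between WT on sucrose and TBGK. Of all genes at least 2-fold higher in TBGK, 8.44% belonged to the Avicel set and 58.6% to the set higher on Avicel and no carbon. Of all genes at least 2-fold lower, 57.7% belonged to the third set. For comparison, the Avicel set, the second set and the third set held 212, 2010 and 1380 of the 8679 kept genes.

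**Figure D4:**
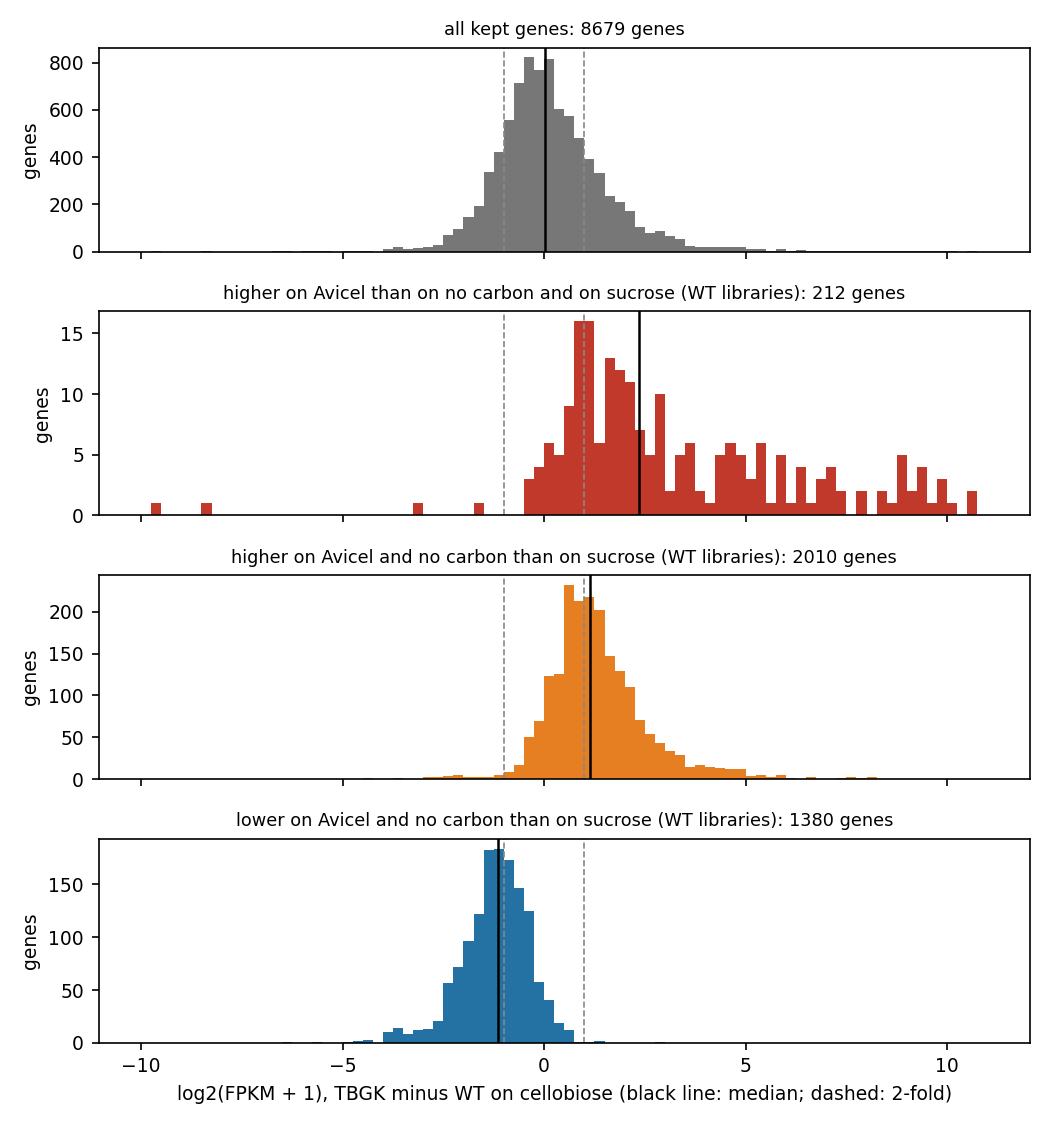
Number of genes (y axis) by strain difference on cellobiose (x axis, TBGK minus WT in log2(FPKM + 1)) for all 8679 kept genes and for 3 sets defined in WT libraries on other carbon sources. The black lines mark medians of 0.03, 2.34, 1.15 and -1.15, and the Avicel set has a long tail to the right.

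Among the 12 largest differences in favour of TBGK, 8 were genes of the lists for cellulose and hemicellulose digestion. The other 4 have no symbol in the gene table. NCU08785 had an FPKM of 16506 in TBGK and 9.07 in WT, NCU08398 had 4321 in TBGK and 5.50 in WT, and NCU01076 had 609.8 in TBGK and was listed at 0 in WT. NCU08756 had 63514 in TBGK and 55.3 in WT and lies beside gh3-3. Of the 89 genes at least 5 higher on the log2 scale, 53 belonged to the Avicel set, which held 212 of the 8679 kept genes. No symbol is given for 69 of the 89, but most genes lack one: 1093 of all 9733 genes have a symbol.

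The most abundant transcripts also differed. The highest in TBGK was the unnamed gene NCU10040, with an FPKM of 203070 in TBGK and 5729.8 in WT, well above all other libraries, among which TBGK on Avicel was highest at 48324. The highest in WT was tef-1, the gene of translation elongation factor 1-alpha, with 42628 in TBGK and 88284 in WT. NCU04522, with 74726 in TBGK and 753 in WT, was also high in TBGK on Avicel, at 48249, but not in WT on Avicel, at 2676, 1172 and 1497. The glucose-repressible gene ccg-1 had 133574 in TBGK and 15486 in WT, and no WT library on no carbon was below 171706.

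Of 4 genes for sugar uptake and sucrose cleavage 3 were at least 2-fold lower in TBGK (background 16.0%), 1 of them by more than the range between WT replicates, and 1 was higher. After centring or quantile normalization 2 were lower. The gene NCU01633 of this list had an FPKM of 909 in TBGK and 22147 in WT, the highest value of the 13 libraries; the next was 4833 in TBGK on sucrose. The glucose transporter gene hgt-1 had 4649.7 in TBGK and 11960 in WT. The invertase gene inv, whose enzyme splits sucrose, had 8521 in TBGK and 18250.1 in WT; its range between WT replicates, 4.28, was larger than the difference of -1.10.

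Starch genes were mixed, with 5 of 10 at least 2-fold higher (background 22.5%), 3 of them by more than the range between WT replicates, and 2 lower (background 16.0%). The glucoamylase gene gla-1 had an FPKM of 1103 in TBGK and 6072 in WT, while gh13-1 had 7745 in TBGK and 3188 in WT. Genes for pentose and uronic acid use were mixed as well, with 4 of 8 higher, 2 of them past that range, and 1 lower. The xylose reductase gene xr had 1199.8 in TBGK and 590.4 in WT, a difference of 1.02 against a range between replicates of 2.12. The widest gap in this list was that of NCU00988, with 863 in TBGK and 54.2 in WT, a difference of 3.97. The lowest difference, -3.28, was that of NCU05627, with 511 in TBGK and 4984 in WT.

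Amino acid synthesis was the largest list that was lower in TBGK. Of 44 genes 34 were at least 2-fold lower (background 16.0%), 33 of them by more than the range between WT replicates, and none was higher. The median difference was -1.67. By pathway, 6 of 7 branched-chain genes were lower, 9 of 11 arginine genes, 6 of 8 aromatic and tryptophan genes, 4 of 4 histidine genes, 3 of 4 lysine genes, 4 of 5 methionine genes and 2 of 5 genes for other amino acids. The widest gap was that of leu-2, for leucine synthesis, which had an FPKM of 23.1 in TBGK and 666 in WT. In arginine synthesis arg-3 had 31.1 in TBGK and 665 in WT. The gene ilv-2, which acts in isoleucine and valine synthesis, had 276 in TBGK and 5529 in WT. The highest difference in the list was that of ilv-5, with 739 in TBGK and 484 in WT, within 2-fold.

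The low levels in TBGK can be set beside the other libraries. For leu-2 FPKM was 18.9, 15.02 and 12.7 in WT on Avicel and 43.01, 13.7 and 14.2 on no carbon, and 1225, 1655 and 1991 in WT on sucrose. The TBGK value on cellobiose lay among the Avicel and no carbon values, and the WT value on cellobiose was below all sucrose values. TBGK on sucrose had 1112, somewhat below all 3 WT values on sucrose.

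Other genes of growth and biosynthesis were lower too. All 7 listed cytosolic ribosomal protein genes were at least 2-fold lower in TBGK, with differences of -2.46 to -1.57; only 2 exceeded the range between WT replicates. For crp-10 FPKM was 2169 in TBGK and 11954 in WT. Of 4 genes for fatty acid synthesis 3 were lower, with the widest gaps at the subunits of fatty acid synthase: cel-1 had 18.1 in TBGK and 1528 in WT, and cel-2 had 27.3 in TBGK and 1521 in WT. The remaining members lay closer together, with oar1 at 43.4 in TBGK and 94.1 in WT, and cem-1 at 147 in TBGK and 107 in WT.

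Lists of mitochondrial genes differed from each other. Of 21 genes for protein import 9 were at least 2-fold lower (background 16.0%) and none was higher, with tim8 lowest at 101 in TBGK and 403 in WT. The count of lower import genes was 8 after centring and 11 after rescaling. None of 29 complex I genes was 2-fold apart in either direction, and their median difference was 0.15. Within that list the differences ran from -0.68 for nuo49, with 851 in TBGK and 1363 in WT, to 0.85 for nuo14.8, with 4323 in TBGK and 2399 in WT. The median turned to -0.05 when the libraries were rescaled to a sum of 1000000 and to -0.10 after quantile normalization.

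Of 28 proteasome genes 4 were at least 2-fold lower and none was higher, a share near the background of 16.0%. The count of lower genes was 9 after rescaling or quantile normalization and 2 after centring. All 4 (rpt-3, rpn-6, rpn-9 and rpn-1) encode parts of the regulatory cap: the median difference was -0.90 for the 15 cap genes and -0.17 for the 13 core genes, a division made after the values were seen. Of 20 peroxin genes, which build peroxisomes, 2 were lower (4 after rescaling) and none higher, a share below the 16.0% of all genes. Of 9 histone genes 3 were lower, among them hH2B at 7241 in TBGK and 22879.5 in WT, and hH1 was highest at 6674 in TBGK and 3383 in WT.

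**Figure D5:**
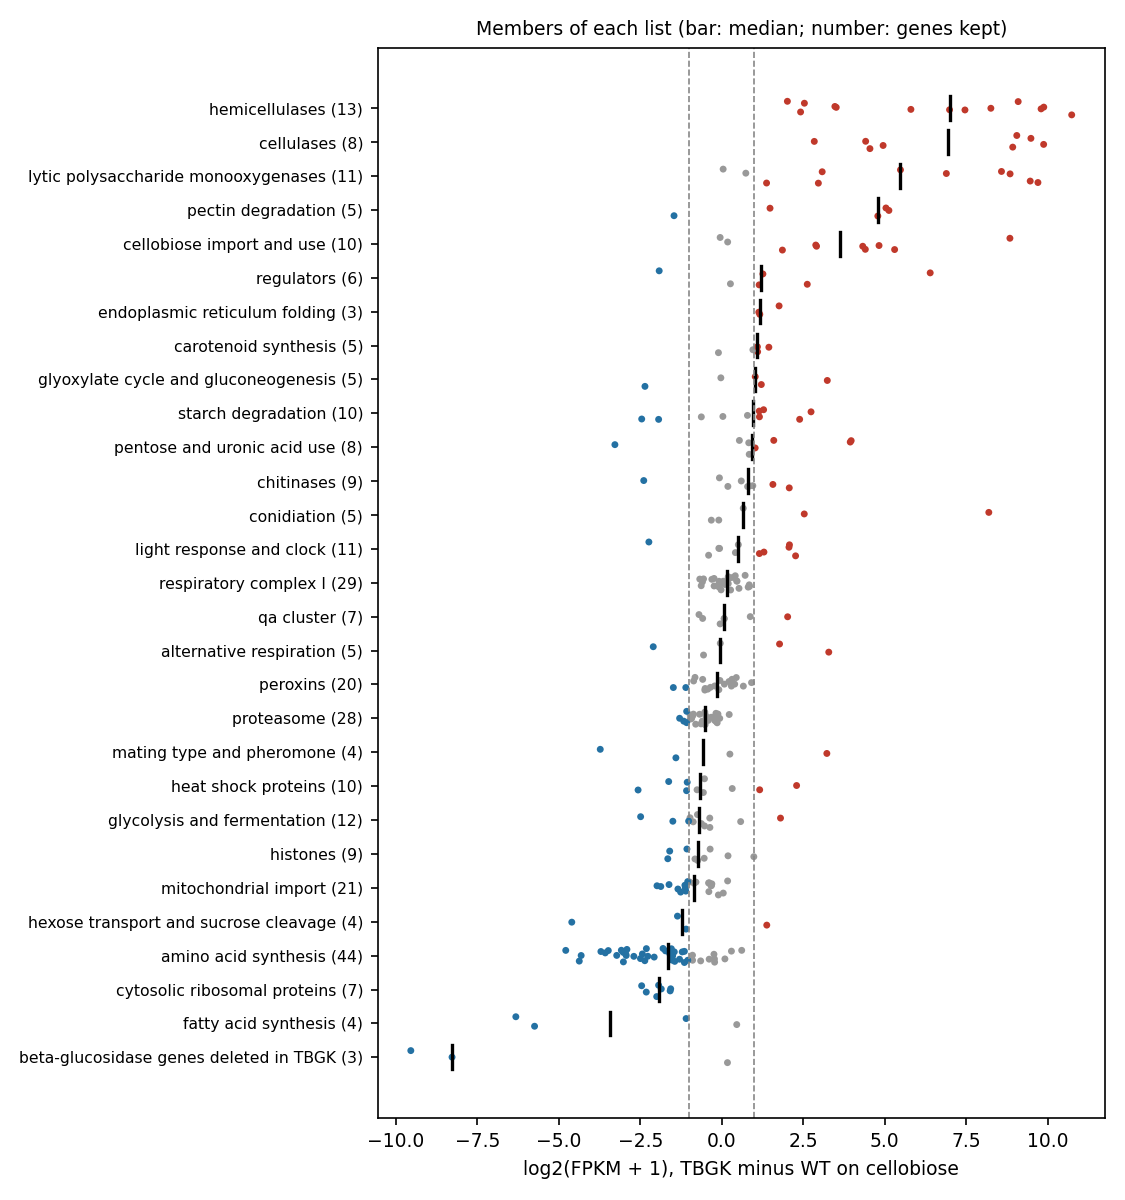
Strain difference on cellobiose (x axis, TBGK minus WT in log2(FPKM + 1)) of the members of 29 gene lists, sorted by median (black bar), with 1 point per gene, red where at least 2-fold higher and blue where at least 2-fold lower. Lists for plant cell wall digestion lie at the top and amino acid, ribosomal and fatty acid genes near the bottom, above the deleted genes; complex I lies within the dashed 2-fold lines.

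Of 12 genes for glycolysis and fermentation 1 was at least 2-fold higher (background 22.5%) and 3 were lower (background 16.0%). The lowest was emp-6, with an FPKM of 890.4 in TBGK and 5018 in WT. The alcohol dehydrogenase gene adh-1 had 82846 in TBGK and 23805 in WT. In the glyoxylate cycle and gluconeogenesis list 3 of 5 were higher, none by more than the range between WT replicates, and 1 was lower. After rescaling 1 was higher, and after quantile normalization 2 were. There acu-6, the gene of phosphoenolpyruvate carboxykinase, had 13989 in TBGK and 1485 in WT, and acu-5, the gene of acetyl-CoA synthetase, had 307 in TBGK and 1581 in WT.

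Some of these genes vary strongly between replicates of 1 condition. The alternative oxidase gene aod-1 had an FPKM of 7391 in TBGK and 760.0 in WT, yet its largest range between WT replicates was 7.47 on the log2 scale, more than the strain difference of 3.28. The same holds for acu-6, with a range of 6.80, for adh-1, with 4.73, and for the pyruvate decarboxylase gene cfp, with 7.34 against a difference of -0.75. The part of this replicate variation in the strain differences was not tested. In the alternative respiration list 2 of 5 genes were higher, none past the range between replicates, and 1 was lower.

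Of 10 heat shock genes 2 were at least 2-fold higher (background 22.5%), 1 past the range between WT replicates. In this list 4 were lower (background 16.0%), 2 past that range. The mitochondrial chaperonin gene hsp60 had an FPKM of 118 in TBGK and 705 in WT, and hsp30 had 693 in TBGK and 141 in WT. Of 7 genes of the quinic acid cluster 1 was higher, a share below the 22.5% of all genes. It was qa-X, with 21.2 in TBGK and 4.47 in WT. For qa-X the range between WT replicates, 2.76, exceeded the difference of 2.02. Of 9 kept chitinase genes 2 were higher and 1 was lower, shares close to or below the 22.5% and 16.0% of all genes, gh18-1 being at 0 in both libraries. The gene chit-1 had 288 in TBGK and 1521 in WT, a difference that did not exceed the range between WT replicates.

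Genes of asexual sporulation were read as markers of another cell type that a mycelial culture could hold. Of 5 genes 2 were at least 2-fold higher in TBGK, 1 of them past the range between WT replicates, and none was lower. The conidiation gene con-6 had an FPKM of 3457 in TBGK and 10.8 in WT, and con-10 had 382 in TBGK and 65.4 in WT. The others were within 2-fold: eas, the gene of the conidial hydrophobin, had 29184 in TBGK and 18527 in WT, con-13 had 3.05 in TBGK and 3.32 in WT, and the regulator fl had 129.7 in TBGK and 163 in WT. The WT libraries on no carbon had 1516, 5383 and 4879 for con-6. The part of sporulating cells in the other differences was not tested.

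Of 5 carotenoid genes 3 were at least 2-fold higher in TBGK, 1 of them past the range between WT replicates, and none was lower. After rescaling or quantile normalization 1 was higher. The gene al-1 had an FPKM of 1480.2 in TBGK and 544 in WT, a difference of 1.44 against a range between replicates of 3.17. Of 11 light response and clock genes 5 were higher (background 22.5%), 2 of them past that range, and 1 was lower (background 16.0%). The light-induced gene bli-3 had an FPKM of 4709 in TBGK and 981 in WT, and the photoreceptor gene vvd had 4478 in TBGK and 1829.7 in WT. The clock gene frq had 221 in TBGK and 294 in WT, within 2-fold, and the lowest member, cry, had 76.3 in TBGK and 364 in WT. The difference of cry did not exceed the range between WT replicates. For vvd the range between WT replicates, 2.58, exceeded the difference of 1.29.

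Some strain differences were present on every carbon source. In 6 genes every TBGK library was at least 4-fold below the lowest of the 10 WT libraries, which all had an FPKM of at least 1. They were NCU09968, NCU09969, NCU11930, NCU02022, NCU02061 and ccg-4. NCU09968 had an FPKM of 0 in TBGK and 97.5 in WT on cellobiose; NCU11930 had 0 in TBGK and 56.03 in WT. Both, and NCU09969, which lies next to NCU09968 on supercont10.6, were listed at 0 in all 3 TBGK libraries. The pheromone precursor gene ccg-4 and the mating type gene matA-1 were listed at 0 in all 3 TBGK libraries as well; on cellobiose matA-1 had 0 in TBGK and 12.3 in WT. Of 6 mating type and pheromone genes 4 were kept, of which 1 was at least 2-fold higher and 2 were lower. The higher one, the pheromone receptor gene pre-2, had 25.05 in TBGK and 1.79 in WT on cellobiose. For pre-2 the gap was not present on every carbon source. On Avicel it had 22.5 in TBGK and 12.2, 16.8 and 20.6 in WT, and on sucrose it was listed at 0 in both strains. The labels used here do not give the mating type of TBGK, so for matA-1 and ccg-4 a gene that the strain lacks and a gene that it does not express cannot be told apart. The genes of this paragraph were chosen after their values were seen.

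The reverse pattern, with every WT library at least 4-fold below the lowest TBGK library, was met by 1 gene, NCU08756. It lies on supercont10.3 from 5252358 to 5254295, directly beside the deleted gene gh3-3. Its FPKM was 108054 in TBGK on Avicel and 1468 in TBGK on sucrose, against at most 129.5 in the 10 WT libraries. The genes directly beside gh3-4 were also higher in TBGK: NCU04951 had 35109 in TBGK and 3052 in WT, and NCU04953 had 238 in TBGK and 7.58 in WT. Beside gh1-1, NCU00132 had 629.7 in TBGK and 159 in WT, and NCU11867 had 29.01 in TBGK and 15.2 in WT. On Avicel and sucrose NCU04951 had 27063 and 17145 in TBGK, against at most 11200.4 and 3929.9 in WT, and NCU04953 had 448 and 16.1 in TBGK, against at most 14.1 and 8.92 in WT. Both were thus above all WT libraries of the same carbon source. So was NCU00132, with 548.6 on Avicel and 76.8 on sucrose in TBGK, against at most 460.1 and 54.0 in WT. In contrast, NCU11867 on Avicel had 86.7 in TBGK and 120.5, 99.1 and 96.01 in WT. On the other side of gh3-3, NCU08753 had 2.60 in TBGK on cellobiose and was listed at 0 in WT. The part of the deletions in these values was not tested.

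The largest differences in favour of WT close the comparison. Besides the deleted genes, the fatty acid synthase genes, leu-2, NCU01633 and the genes at 0 in all TBGK libraries, they were NCU08473, NCU08557 and NCU09075. NCU08473 had an FPKM of 2.98 in TBGK and 105 in WT; the other two were listed at 0 in TBGK and had 20.2 and 38.00 in WT. Among genes with an FPKM of at least 100, the next were arg-3, ilv-2, NCU05259, NCU03293, NCU04303 and nit-3. The nitrate reductase gene nit-3 had 17.7 in TBGK and 274 in WT, and NCU03293 had 954 in TBGK and 14374 in WT. The next in favour of TBGK were cbh-1, gh7-1, gh61-1, cdh-1, NCU07898 and NCU00449. For gh61-1 FPKM was 9652 in TBGK and 20.01 in WT, and for NCU07898 it was 6699 in TBGK and 14.1 in WT.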

How the data were processed

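Polyadenylated RNA was sequenced on the Illumina platform, per the labels' protocols. The authors aligned reads with TopHat (no version given) and estimated FPKM with Cufflinks 0.9.3, per the submitters' processing notes. The deposited FPKM tables had 1 row per gene (9733) in the single libraries and per transcript (9907) in the WT triplicates, which were summed to genes. The genome build is not given in the sources used here. Positions are those of the files' contigs, counted from 1. Symbols come from a RefSeq gene table of assembly NC12. The FPKM sum was 5762159 in TBGK and 5017876 in WT on cellobiose, so scalings were compared. Depth is unknown, so no counting interval is given.

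Differences were taken in log2(FPKM + 1) (pseudocount 1) for genes reaching an FPKM of 1 in either library. Named genes were the deleted ones, the 12 largest and 12 smallest differences at an FPKM of at least 10, the next 6 each way at 100, and list members. The members and lists were chosen with earlier results of these data known; the mating type list was chosen after its values were seen. List membership of unnamed genes comes from general knowledge of the species. WT sets were called with limma 3.58.1 in R 4.3.3 (intensity trend); of 100 genes simulated with a change of 2 log2 units between WT on Avicel and no carbon it called 71. As an alternative, limma was fitted to all 13 libraries, with single libraries assumed to vary like the WT triplicates. On simulated data it called 39 of 100 genes changed by 2 log2 units between the strains on cellobiose. The series' design text calls the WT triplicates biological; the labels mark them as deposited earlier than the single libraries. Alternatives were other pseudocounts, filters, scalings and folds. Scripts ran in Python 3.11.15 with numpy 2.4.6, pandas 2.3.3 and, for plots, matplotlib 3.10.9.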

Additional observations from a re-analysis of the deposited data

Results flagged for a closer look

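The strain difference on cellobiose was set against that on sucrose in limma over all 13 libraries, where single libraries are assumed to vary like the WT triplicates. On sucrose the WT libraries are marked as deposited earlier than the TBGK one, while both cellobiose libraries are single ones. Strain and deposit therefore cannot be told apart in the sucrose part. The genes with the largest differences were picked by their strain difference on cellobiose, which is itself a term of this contrast. The lists were chosen with earlier results of these data known. Calls among these genes were thus favoured in advance, and their share is no independent support. Of 8679 genes, 147 had a higher strain difference on cellobiose than on sucrose and 70 a lower one, at a Benjamini-Hochberg adjusted p under 0.05. These counts ranged from 79 to 386 and from 20 to 264 with 1 WT library left out, the most without Avicel replicate 1; without sucrose replicate 1 they were 272 and 150, and without both 987 and 772. Of the genes with the largest differences and the list members, 34 of 332 were called, and they are given as the strain difference on cellobiose minus that on sucrose in log2(FPKM + 1).

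For cellulases it was 9.43 for gh6-2, 8.62 for cbh-1, 8.44 for gh7-1, 4.66 for gh7-2 and 4.34 for gh6-3. For monooxygenases it was 9.41 for gh61-5 and 5.25 for gh61-3. Among the hemicellulase and pectin lists it was 10.73 for NCU04870, 9.38 for gh10-1, 9.19 for NCU05159, 6.49 for NCU05955, 5.13 for gh28-2 and 4.49 for NCU08176. Among genes for cellobiose use it was 8.60 for cdh-1, 5.12 for gh3-6 and 3.15 for NCU09425. It was 6.27 for the regulator clr-2 and 3.22 for the pheromone receptor gene pre-2. The unnamed genes NCU08785, NCU01076 and NCU08398 had 9.46, 9.25 and 9.001.

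Lower on cellobiose than on sucrose were the deleted genes gh3-3 at -7.17 and gh1-1 at -5.26, the fatty acid synthase genes cel-1 at -6.22 and cel-2 at -5.81, and NCU04303 at -3.30. For gh3-3 and gh1-1, which TBGK lacks, this difference reflects that WT transcribed them more on cellobiose than on sucrose. In amino acid synthesis it was -3.36 for aro-1, -2.79 for arg-4, -2.75 for aro-3, -2.60 for arg-10, -2.57 for met-7, -2.38 for ilv-4, -2.27 for aro-8 and -2.07 for leu-4. When 1 WT library was left out at a time, between 18 and 34 of these 34 calls held. The fewest held without sucrose replicate 3, where among others the calls of gh1-1, gh3-3, gh10-1, gh6-3, cel-1 and cel-2 were lost. NCU08756, with a strain difference of 10.14 on cellobiose and 8.96 on sucrose, was not called.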

How the results depend on the processing

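The number of genes at least 2-fold higher in TBGK was 1955. It was 1283 when libraries were rescaled to a sum of 1000000, 1277 when the difference also had to exceed the range between WT replicates, 783 at 4-fold and 603 by limma over 13 libraries (adjusted p under 0.05). The number of lower genes, 1386, became 286 at 4-fold and 513 by limma; limma gave 2566 genes at an unadjusted p under 0.05. The limma counts depend on WT libraries outside the comparison: they ranged from 435 to 1045 higher and 299 to 908 lower with 1 WT library left out, with the most without Avicel replicate 1 and the fewest without Avicel replicate 2; the lower count also moved over 1.5 times without Avicel replicate 3 (303), sucrose replicate 1 (822) and sucrose replicates 2 or 3 (332 each). They were 1689 higher and 1742 lower without Avicel replicate 1 and sucrose replicate 1. The median of all genes, 0.03, was -0.041 at an FPKM of at least 10, 0.13 after centring, -0.12 after quantile normalization and -0.15 after rescaling. At an FPKM of at least 10 the median difference was 8.93 for cellulases, 7.73 for monooxygenases and 4.32 for cellobiose import and use, over fewer genes. A pseudocount of 0.1 gave 7.47 for cellulases and 4.36 for cellobiose import and use, and a pseudocount of 10 gave 5.86 for hemicellulases. No list or named gene that was 2-fold apart changed direction under the other pseudocounts, filters and scalings. With 1 WT library left out of the definition of the WT sets, 124 to 176 genes of the Avicel set were higher in TBGK and 775 to 816 genes of the sucrose set lower; these fits were added after seeing the data. No paired analysis was possible because each strain had 1 library on cellobiose. The unknown depth limits values near 0: 61 genes were at an FPKM of at least 10 in TBGK and listed at 0 in WT, and 11 the reverse.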
